A study of Mus musculus with 12 samples.

Results

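Adding an antibody against PD-1 to interferon alpha was examined by comparing 3 libraries given both agents with 3 libraries given interferon alpha alone, over every gene with 10 or more counts in at least 3 of these 6 libraries. Of 21878 genes in the count table, 14037 met this rule. The labels name 4 groups of 3 libraries in 12 libraries of total RNA: untreated, mouse interferon alpha (IFNa), anti-PD-1 antibody (antiPD1) and both agents (the combination). The cell line given for every library is Hepa1-6, which was derived from a mouse hepatoma, the tissue is liver, and the series title speaks of mouse liver tumor. Both compared groups received IFNa, and they differ by the antibody. The labels give no strain, age, dose or time, and nothing in them ties replicates to different animals or cultures, so p-values measure only the spread between these libraries.

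PD-1 is an inhibitory receptor on activated T cells. Binding of its ligands PD-L1 and PD-L2 damps signalling from the T cell receptor, and antibodies that block it release that brake. Type I interferons act through a shared receptor and JAK kinases to raise antiviral and antigen presentation genes. T cells and NK cells release interferon gamma, which acts through its own receptor to raise class II antigen presentation, guanylate-binding proteins and the chemokines Cxcl9 and Cxcl10.

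The 6 libraries held 32.7 to 38.5 M counts, 15991 to 16377 detected genes and 12.5% to 15.6% of counts in the 50 most abundant genes, and 3 counts corresponded to 0.0785 to 0.0902 CPM (counts per M counts of the library, scaled by TMM). Hepatoma transcripts were abundant in all 6, with 5708 to 11167 CPM of Afp, the fetal albumin relative alpha-fetoprotein. T cell, macrophage and dendritic cell transcripts were also present in all 6, which the label of a hepatoma line does not cover. In bulk RNA, more cells of a type and more RNA per cell cannot be told apart. IFNa replicate 1 stood apart from its group, at -56.5 on the second principal component against 9.15 and 11.9 for the other IFNa libraries. AntiPD1 replicate 3, which is not compared here but enters the shared estimate of spread, stood apart on the first component at 79.1 against 17.3 and 5.84. The components carried 16.2% and 57.2% of the variance.

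At an adjusted p under 0.05 (edgeR quasi-likelihood test, Benjamini-Hochberg over all 14037 genes), 49 genes rose (0.349% of those tested) and 88 fell (0.627%) when antiPD1 was added to IFNa, 137 in all (0.976%). Of these, 9 rises met the filter on low counts only through the combination and 5 falls only through IFNa. In the IFNa libraries, 1 called gene had 0 counts. At an unadjusted p under 0.05 there were 1736 higher (12.4%) and 1501 lower (10.7%) genes. All 137 that passed were free of overlap between the 3 and 3 values, as were 2862 genes higher (20.4%) and 2313 lower (16.5%) in the combination over the whole table. Counts of list members without overlap are to be read against these 2 shares, and counts of higher members against the 51.9% of all tested genes that were higher. The median log2 fold change of all tested genes was 0.02. Falls went down to -5.54 on the log2 scale, and 32 rises and 37 falls exceeded 1. The number of calls differed between fits, of which the replicate block rests on a pairing by number that the labels do not give. With the replicate number as a block, 381 rose (2.71%) and 195 fell (1.39%), with the 6 compared libraries alone 774 rose (5.51%) and 362 fell (2.58%), and with antiPD1 replicate 3 left out of the fit 760 rose (5.41%) and 711 fell (5.07%). DESeq2 called 820 rises (5.84%) and 815 falls (5.81%). On the authors' FPKM values as log2(FPKM + 1), limma tested 11137 genes and not 14037, and called 126 rises and 48 falls. All 137 genes were also called with the block, with 6 libraries, without antiPD1 replicate 3 and by DESeq2. On the FPKM values, 85 of the 119 that could be tested were also called on log2(FPKM + 1), 81 of 119 on log2(FPKM + 0.1) and 84 of 137 without a filter. Leaving out 1 of the 6 compared libraries left 0 to 23 rises and 0 to 78 falls, with 0 of each without combination replicate 2, 2 and 1 without combination replicate 3, 6 and 2 without combination replicate 1, 7 and 16 without IFNa replicate 3, 18 and 49 without IFNa replicate 2 and 23 and 78 without IFNa replicate 1. Of the 137, the number also called was 67 without IFNa replicate 1, 57 without IFNa replicate 2, 23 without IFNa replicate 3, 8 without combination replicate 1, 3 without combination replicate 3 and 0 without combination replicate 2. All 137 kept their sign in each of these fits. In the text, rose and fell are used of genes that passed in the fit of 12 libraries, the error beside a log2 fold change is its standard error, and values of libraries are in the order of replicates 1, 2 and 3. Beside a gene that did not pass, the adjusted p with the replicate block is printed only where it was under 0.05. Of 77 named genes not called, 33 passed with the block. Among those over 0.05 with it were Cd4 (0.0827), Cd3e (0.0804), H2-K1 (0.0799), Cd27 (0.062), Notum (0.0542), Foxp3 (0.0509) and Pdcd1 (0.0506).

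**Figure D1:**
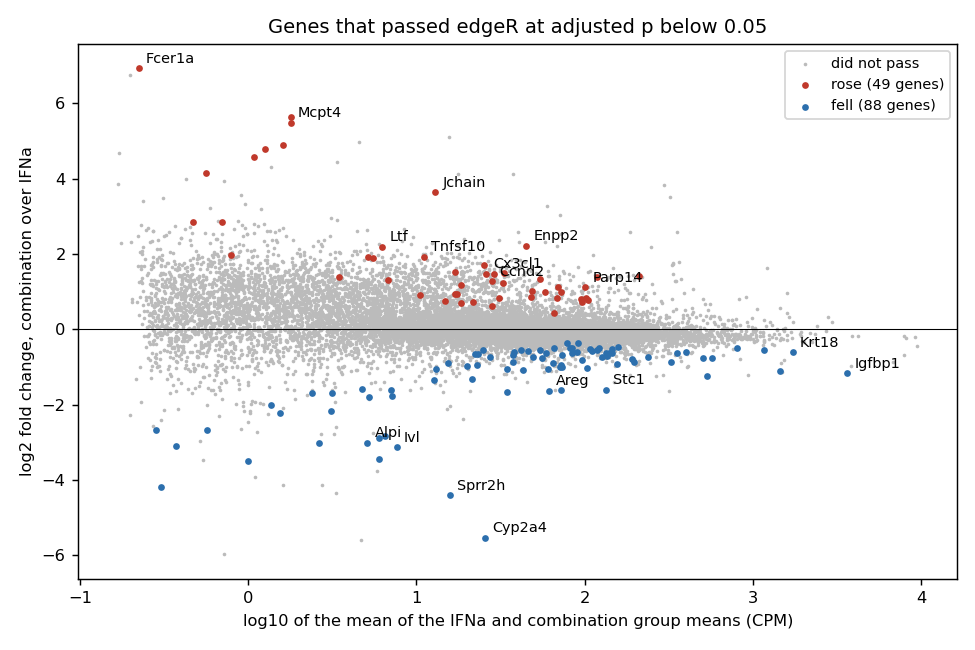
Log2 fold change (combination over IFNa, vertical axis) against the log10 of the mean of both groups' mean CPM (horizontal axis) for 14037 genes, with the 49 genes that rose in red and the 88 that fell in blue. Mast cell genes that rose, all kept by the filter on low counts only through the combination, sit at the upper left at low CPM. There the fitted fold of Fcer1a, with 0 counts in the IFNa libraries, depends on the prior count of the fit. Krt18 and Igfbp1 are among the most abundant genes that fell.

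The largest rise among genes that passed with at least 5 CPM was Jchain (mm10 chr5:88519809-88527891), which encodes the chain that joins secreted immunoglobulin A and M into polymers. Jchain stood at 1.11, 2.06 and 2.59 CPM with IFNa and at 27.7, 22.3 and 22.1 CPM with the combination, a log2 fold change of 3.64 ± 0.41 (adjusted p = 0.0104). The lowest combination library was far above the highest IFNa library. Enpp2 (chr15:54838901-54952892), which encodes autotaxin, the secreted enzyme that makes lysophosphatidic acid, had 14.2, 16.7 and 16.7 CPM with IFNa and 71.3, 82.5 and 67.6 with the combination (2.22 ± 0.25, adjusted p = 0.0104). Its 3 combination libraries lay close together and all exceeded every IFNa library. Tnfsf10 (chr3:27317028-27342427), the death ligand TRAIL, had 3.397, 4.68 and 5.63 CPM with IFNa and 17.3, 16.4 and 18.7 with the combination (1.93 ± 0.34, adjusted p = 0.0299), again with no overlap.

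Cx3cl1, the membrane-bound chemokine fractalkine, rose from 11.99, 16.04 and 13.2 CPM with IFNa to 36.8, 39.5 and 38.2 with the combination (1.47 ± 0.17, adjusted p = 0.0113). The 3 combination values lay within a narrow range. Itgb7, the beta 7 integrin chain of lymphocytes that home to mucosa, was the most abundant of the leading rises, at 92.8, 125 and 128 CPM against 256, 308 and 352 (1.41 ± 0.19, adjusted p = 0.0117). Ltf, the neutrophil granule protein lactoferrin, had 3.49, 1.71 and 1.57 CPM against 10.6, 12.2 and 8.17 (2.19 ± 0.43, adjusted p = 0.0433). IFNa replicate 1 was the highest of its group for Ltf and still below every combination library. Cd200r1, an inhibitory receptor of myeloid cells, rose by 1.91 ± 0.35, and Grap2, an adaptor of T cell receptor signalling, by 1.89 ± 0.35 (adjusted p = 0.0351 and 0.0351). The secreted ligand Wnt6 rose from 11.7 ± 1.21 to 38.6 ± 8.17 CPM (mean ± SD, n = 3, 1.72 ± 0.32), and Col8a1, a short-chain collagen, from 15.3 ± 4.43 to 42.2 ± 5.01 (1.46 ± 0.25). Ccnd2, the G1 cyclin D2, rose from 16.5 ± 1.62 to 40.1 ± 4.28 CPM (1.28 ± 0.21, adjusted p = 0.0271) and was picked out after its values were seen.

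**Figure D2:**
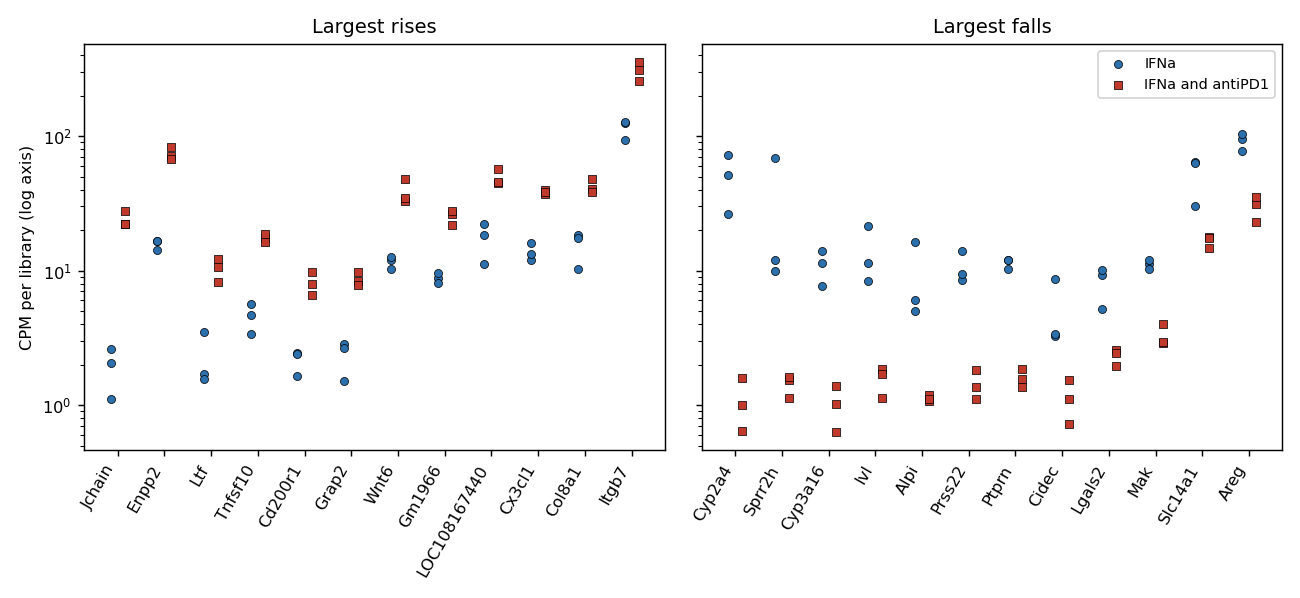
CPM in each library (log axis) for the 12 rises (left) and 12 falls (right) that changed most, out of the called genes whose higher group averaged 5 CPM or more and whose groups were separate, with IFNa libraries as blue circles and combination libraries as red squares. Circles and squares are separate for all 24 genes, and the widest spread among IFNa libraries is that of Sprr2h, from 9.85 to 69.0 CPM.

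Mast cell genes had the largest rises among genes that passed, at low counts. Of the 12 genes of the mast cell list, 10 passed the filter on low counts, and 7 of these did so only through the combination libraries, so no count or median over the list is given. Mcpt4, a chymase of connective tissue mast cells, had 0, 4 and 4 counts with IFNa and 90, 184 and 96 with the combination. Tpsb2, a tryptase, had 4, 2 and 1 counts against 84, 167 and 120, and Cpa3, the mast cell carboxypeptidase, had 0, 5 and 6 against 72, 132 and 126. Every combination library was at least 10 times above the highest IFNa library in all 3. Over the summed counts, and after scaling for depth, the ratio was 46.4 for Mcpt4 (95% exact interval 23.3 to 108), 53.2 for Tpsb2 (25.6 to 133) and 30.1 for Cpa3 (16.6 to 60.9). These intervals cover counting error only. The chymase Cma1 had a ratio of 28.7 (14.9 to 63.4) and Mcpt2, a protease of mucosal mast cells, 24.4 (12.6 to 54.2). None of these genes had 10 counts in any IFNa library, so the filter kept them only because they were high in the combination. Their adjusted p, which carries this selection, was 0.0117 for Mcpt4, 0.0149 for Tpsb2, 0.0433 for Cpa3, 0.0341 for Cma1 and 0.0335 for Mcpt2. Ratios were smaller in the 3 members with 10 or more counts in libraries of both groups. They were 6.86 (4.63 to 10.5) for the protease Mcpt1, 1.59 (1.26 to 2) for Gata2 and 0.988 for Kit.

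Fcer1a, the alpha chain of the high-affinity IgE receptor, had 0 counts in all 3 IFNa libraries and 12, 24 and 11 with the combination, at least 4.95-fold higher by the level of 3 counts in a library (adjusted p = 0.028). Fcer1a too met the filter only through the combination, and its adjusted p carries this selection. Kit, the stem cell factor receptor, had 398, 173 and 192 counts against 254, 261 and 236, a ratio of 0.988 (0.892 to 1.09). Kit, unlike the proteases, is not restricted to mast cells. IFNa replicate 1 held 0 counts of Mcpt4, Cpa3, Cma1, Mcpt2 and Mcpt1, and 4 of Tpsb2. Cpa3 and Fcer1a were picked out after their values were seen. The mast cell proteases are a family of similar genes, and how reads shared between them were counted is not given in the sources used here.

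PD-1 itself, the target of the antibody, is encoded by Pdcd1 and stood at 1.08, 3.797 and 5.08 CPM with IFNa and 8.57, 11.9 and 12.1 with the combination (1.703 ± 0.58, adjusted p = 0.12). The groups did not overlap, IFNa replicate 1 was the lowest, and the gene did not pass. Its ligand PD-L1, encoded by Cd274, had 25.9, 33.9 and 32.01 against 67.8, 58.3 and 94.5 CPM (1.26 ± 0.42, adjusted p = 0.117). Havcr2, the checkpoint receptor Tim-3, had 3.13, 5.88 and 5.47 against 14.5, 12.8 and 11.8 (1.43 ± 0.42, adjusted p = 0.0914, and 0.0471 with the replicate block). Of 15 tested checkpoint and exhaustion genes, 12 were higher without overlap and 2 were lower, with a median of 1.29. None passed (11 higher at an unadjusted p under 0.05), against 3 with the replicate block, 9 by DESeq2 and 8 with antiPD1 replicate 3 left out.

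T cell identity genes were higher in the combination in all 26 tested members, 24 of them without overlap (against 20.4% of all genes), with a median log2 fold change of 1.51. Cd8a, which marks cytotoxic T cells, had 3.19, 8.94 and 8.98 CPM with IFNa and 17.6, 20.04 and 22.3 with the combination (1.504 ± 0.43, adjusted p = 0.0899, and 0.0368 with the replicate block). Cd4, the co-receptor of helper T cells, had 1.35, 5.65 and 6.596 against 13.96, 18.99 and 21.2 (1.99 ± 0.73, adjusted p = 0.14), and Cd3e, a chain of the T cell receptor complex, had 1.05, 4.82 and 3.95 against 8.63, 9.80 and 9.88 (1.52 ± 0.56, adjusted p = 0.14). For all 3 genes IFNa replicate 1 was lowest by a wide gap. Combination libraries lay close together for Cd3e and were more spread for Cd8a and Cd4. Cxcr3, the receptor for Cxcl9 and Cxcl10, had 0.1804, 0.514 and 0.5497 against 2.09, 2.68 and 3.12 (2.65 ± 0.57, adjusted p = 0.0539, and 0.0228 with the block). In the T cell list 0 of 26 passed (20 higher at an unadjusted p under 0.05), against 2 with the replicate block, 11 by DESeq2 and 10 with antiPD1 replicate 3 left out. The summed level of the list was 113, 209.8 and 196 CPM with IFNa and 283, 321 and 344 with the combination, and without IFNa replicate 1 the median was 1.14.

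Ifng, which encodes interferon gamma, had 0.391, 0.999 and 1.62 CPM against 2.398, 2.97 and 3.86 (1.61 ± 0.49, adjusted p = 0.101, and 0.0355 with the block). Fasl, the ligand of the death receptor Fas, had 0.1804, 0.742 and 0.968 against 1.78, 2.09 and 2.29 (1.69 ± 0.51, adjusted p = 0.0966, and 0.0471 with the block). Both were higher in every combination library. Gzmb, the protease granzyme B, had 5.11, 9.16 and 9.79 against 6.74, 5.67 and 8.503 with overlapping groups (-0.203 ± 0.36, adjusted p = 0.777). Gzma, granzyme A, had 1.74, 3.197 and 4.06 against 2.28, 1.48 and 1.99 (-0.64 ± 0.36). Tbx21, the T-box factor T-bet of type 1 lymphocytes, had 0.1804, 0.971 and 1.15 against 2.57, 2.73 and 3.37 (1.901 ± 0.67, adjusted p = 0.128). Of 16 tested effectors, 13 were higher, 12 of them without overlap, and 3 were lower with overlap, the median was 1.23, and 0 passed (9 higher at an unadjusted p under 0.05), against 2 with the replicate block, 2 by DESeq2 and 1 with antiPD1 replicate 3 left out. Costimulatory genes were higher in 12 of 12, 9 without overlap, with a median of 1.03. Of them, 1 passed the filter on low counts only through the combination. None of these 12 passed (6 higher at an unadjusted p under 0.05), against 1 with the replicate block, 3 by DESeq2 and 3 with antiPD1 replicate 3 left out. Cd226, an activating receptor of T and NK cells, had 0.481, 1.31 and 1.18 against 3.33, 2.995 and 3.89 CPM (1.77 ± 0.48, adjusted p = 0.0824). Cd27, a TNF receptor family member of T cells, had 0.421, 1.63 and 1.88 against 2.34, 3.98 and 4.11 (1.402 ± 0.58, adjusted p = 0.18). Foxp3, the defining factor of regulatory T cells, had 0.2405, 0.685 and 0.5497 against 2.03, 2.705 and 2.71 (2.32 ± 0.68, adjusted p = 0.0925). In the regulatory T cell list of 8, 5 were higher without overlap and 1, the actin-capping gene Capg, was lower, at 215, 199.9 and 222 against 141, 144 and 145 CPM (-0.57 ± 0.12, adjusted p = 0.0539, and 0.0481 with the block). Here 0 rose (5 higher at an unadjusted p under 0.05), against 2 with the replicate block, 4 by DESeq2 and 2 with antiPD1 replicate 3 left out. The list's median was 1.61, and -0.11 on log2(FPKM + 1), where fewer members could be tested. Of the 8, 1 passed the filter on low counts only through the combination.

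NK cell genes showed the least separation of the lymphocyte lists. Of 8 tested, 3 were higher without overlap, 1 was lower without overlap, and the median was 0.80 (0.42 without IFNa replicate 1). Klra4, an activating receptor of the Ly49 family, ran the other way, at 16.9, 5.34 and 6.62 CPM with IFNa and 1.78, 0.756 and 1.71 with the combination (-2.76 ± 0.57, adjusted p = 0.0506, and 0.0228 with the block). Ly49 genes are near-identical copies, so reads of Klra4 may be shared with its relatives. No NK gene rose (0 higher at an unadjusted p under 0.05), against 0 with the replicate block, 0 by DESeq2 and 0 with antiPD1 replicate 3 left out.

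Of the 12 B and plasma cell genes that passed the filter on low counts, 4 did so only through the combination, so no count or median over this list is given either. Jchain was the 1 that rose. Mzb1, an endoplasmic reticulum protein of antibody-secreting cells, had 0, 0.114 and 0.0262 CPM against 0.846, 0.872 and 0.6902 (adjusted p = 0.0628). Pou2af1, a B cell coactivator, had 0.2405, 0.257 and 0.366 against 1.18, 1.31 and 0.663 (1.85 ± 0.42, adjusted p = 0.0628, and 0.0484 with the block). The IFNa libraries for Mzb1 lay at or near the level of 3 counts, so Mzb1 met the filter only through the combination. Its adjusted p carries this selection. Sdc1, the plasma cell marker syndecan-1, was the exception and was lower, at 217, 231 and 228 against 174, 157 and 163 CPM (-0.45 ± 0.10, adjusted p = 0.0598, and 0.0494 with the block). Epithelial cells, hepatocytes among them, also express Sdc1.

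Macrophage and monocyte genes were higher in 28 of 30, 23 without overlap (against 20.4% of all genes), with a median of 1.13. Adgre1, the macrophage antigen F4/80, had 9.11, 21.8 and 20.4 CPM with IFNa and 69.5, 53.2 and 59.8 with the combination (1.83 ± 0.52, adjusted p = 0.0893, and 0.0496 with the block). Msr1, a scavenger receptor, had 33.7, 35.5 and 35.3 against 70.1, 62.5 and 65.8 (0.92 ± 0.26, adjusted p = 0.0842, and 0.042 with the block). Cx3cr1, the receptor for Cx3cl1, had 1.32, 5.62 and 6.07 against 17.4, 16.95 and 18.3 (2.01 ± 0.56, adjusted p = 0.086, and 0.0461 with the block). All 3 separated the groups, and for Adgre1 and Cx3cr1 the lowest library was IFNa replicate 1. Of the 30, 0 passed (20 higher at an unadjusted p under 0.05), against 5 with the replicate block, 14 by DESeq2 and 16 with antiPD1 replicate 3 left out. The summed level overlapped, at 5397, 5892 and 6522 CPM with IFNa and 8425, 6416 and 6179 with the combination.

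Neutrophil genes were higher in 17 of 19, 10 without overlap (against 20.4%), with a median of 1.46, and Ltf was the 1 that rose (11 higher at an unadjusted p under 0.05), against 2 with the replicate block, 9 by DESeq2 and 7 with antiPD1 replicate 3 left out. S100a9, a calcium-binding alarmin, had 30.2, 13.1 and 14.7 CPM against 57.6, 79.6 and 38.5 (1.598 ± 0.39, adjusted p = 0.0721). Cxcr2, the neutrophil chemokine receptor, had 3.31, 2.85 and 2.93 against 4.96, 7.59 and 5.66 (1.002 ± 0.29, adjusted p = 0.0899). Here IFNa replicate 1 was the highest IFNa library, the reverse of its place in the T cell list. Dendritic cell genes were higher in 16 of 16, 14 without overlap, with a median of 1.39 and 0 passing (9 higher at an unadjusted p under 0.05), against 2 with the replicate block, 4 by DESeq2 and 4 with antiPD1 replicate 3 left out. Xcr1 and Clec9a mark the dendritic cells that cross-present antigen. Xcr1 had 0, 0.371 and 0.314 CPM against 2.06, 1.63 and 2.76 (adjusted p = 0.0817, and 0.0369 with the block). Clec9a had 0.661, 1.54 and 1.57 against 5.05, 3.66 and 7.12 (2.06 ± 0.70, adjusted p = 0.118).

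**Figure D3:**
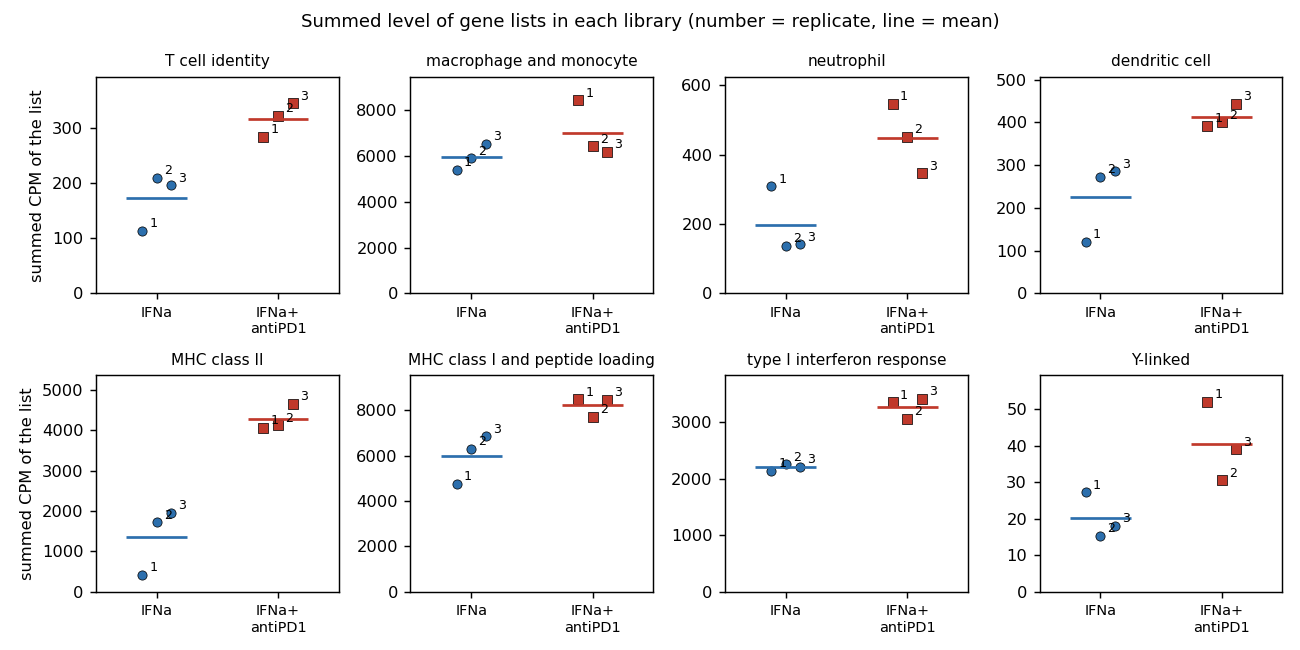
Summed CPM of 8 gene lists in each IFNa library (blue circles) and each combination library (red squares), with the replicate number beside each point and the mean as a line. MHC class II sums run from 424 to 1950 CPM with IFNa and from 4065 to 4661 with the combination, and IFNa replicate 1 is the lowest library in the T cell, dendritic cell and MHC panels.

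Most type I interferon genes were higher in the combination, although both groups had received IFNa. Of 53 tested, 49 were higher, 38 without overlap (against 20.4%), and the median log2 fold change was 0.53 against 0.02 over all genes. Parp14, an ADP-ribosyltransferase, had 57.4, 72.1 and 61.8 CPM with IFNa and 138, 129.6 and 149 with the combination (1.12 ± 0.19, adjusted p = 0.0277). Samd9l, an antiproliferative interferon-induced protein, had 37.3, 46.6 and 33.3 against 70.2, 76.5 and 87.1 (0.996 ± 0.18, adjusted p = 0.0351). Oasl2, of the oligoadenylate synthetase family, had 22.8, 36.97 and 33.3 against 77.7, 67.5 and 89.7 (1.34 ± 0.27, adjusted p = 0.0483). These were the 3 members that rose (30 higher at an unadjusted p under 0.05), against 13 with the replicate block, 16 by DESeq2 and 13 with antiPD1 replicate 3 left out. Isg15, the ubiquitin-like interferon product, had 14.9, 9.62 and 11.2 against 21.2, 16.6 and 17.5 CPM (0.63 ± 0.24, adjusted p = 0.147). Ifit1, which binds foreign RNA, had 8.09, 4.88 and 5.55 against 12.97, 9.13 and 10.3 (0.81 ± 0.29, adjusted p = 0.132). Both separated the groups without passing. Outside the list, Mndal, of the family of interferon-inducible DNA sensors, rose from 19.3, 19.6 and 19.9 to 45.2, 39.4 and 52.2 CPM (1.22 ± 0.17, adjusted p = 0.0158), and Trim12c, a tripartite motif protein, from 9.68, 11.9 and 13.2 to 22, 21.5 and 23.4 (0.94 ± 0.17, adjusted p = 0.0341). Gm1966, a relative of the very large interferon-inducible GTPases, rose from 8.81, 9.56 and 8.06 to 26.3, 21.7 and 27.6 (1.51 ± 0.27). Mndal, Trim12c and Gm1966 have close paralogs with which reads may be shared. Mndal and Trim12c were picked out after their values were seen.

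Interferon gamma inducible genes were higher in 25 of 25, 23 without overlap, with a median of 1.14. Guanylate-binding proteins, which attack vacuoles that hold pathogens, were among the members with the smallest p. Gbp4 had 21.5, 35.7 and 33.8 CPM against 86, 81.5 and 129.7 (1.71 ± 0.38, adjusted p = 0.0593, and 0.0116 with the block). Gbp5 had 10.1, 18.4 and 19.2 against 43.02, 49.4 and 79.3 (1.85 ± 0.47, adjusted p = 0.0763, and 0.0182 with the block). Gbp7 had 34.9, 61.1 and 45.2 against 105, 103 and 142 (1.31 ± 0.32, adjusted p = 0.0733, and 0.0241 with the block). Every combination library exceeded every IFNa library in all 3. In this list 0 of 25 passed (19 higher at an unadjusted p under 0.05), against 16 with the replicate block, 13 by DESeq2 and 11 with antiPD1 replicate 3 left out. Among 19 interferon receptor and JAK-STAT genes, 10 were higher and 1 lower without overlap, with a median of 0.21 and 0 rising (8 higher at an unadjusted p under 0.05), against 2 with the replicate block, 3 by DESeq2 and 2 with antiPD1 replicate 3 left out. The feedback inhibitors Socs1 and Socs3 parted. Socs1 had 6.16, 14.6 and 14.6 CPM against 19.2, 20.9 and 31 (1.01 ± 0.31, adjusted p = 0.101, and 0.038 with the block). Socs3, the main brake on interleukin 6 signalling, had 138, 187 and 179 against 93.6, 101 and 105 (-0.75 ± 0.23, adjusted p = 0.101).

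The promoters of 4 of these genes are shown because each holds the core of the interferon-stimulated response element, a site bound by IRF proteins. Each is the 250 bases before the transcription start in RefSeq (GRCm38.p6), read 5′ to 3′ on the gene's strand, with every match to GAAA, any 2 bases and GAAA again on either strand in capitals. Mndal lies at chr1:173880188-173880437 on the minus strand, Trim12c at chr7:104353350-104353599 on the minus strand, Cxcl10 at chr5:92348890-92349139 on the minus strand and Gbp7 at chr3:142530086-142530335 on the plus strand.
Mndal: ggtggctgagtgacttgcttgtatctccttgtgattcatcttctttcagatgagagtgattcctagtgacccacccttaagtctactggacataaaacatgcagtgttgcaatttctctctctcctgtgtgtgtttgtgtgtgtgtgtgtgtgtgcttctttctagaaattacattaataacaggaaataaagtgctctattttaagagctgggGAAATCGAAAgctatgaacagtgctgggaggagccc
Trim12c: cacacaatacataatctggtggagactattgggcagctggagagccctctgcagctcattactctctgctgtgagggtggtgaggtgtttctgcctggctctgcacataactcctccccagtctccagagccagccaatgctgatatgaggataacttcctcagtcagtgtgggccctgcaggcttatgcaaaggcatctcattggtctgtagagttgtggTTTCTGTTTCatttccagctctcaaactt
Cxcl10: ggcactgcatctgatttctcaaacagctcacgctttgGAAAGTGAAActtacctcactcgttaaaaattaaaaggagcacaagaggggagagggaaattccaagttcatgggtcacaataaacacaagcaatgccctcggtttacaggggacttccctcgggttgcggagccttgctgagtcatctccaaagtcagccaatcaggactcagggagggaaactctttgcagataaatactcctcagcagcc
Gbp7: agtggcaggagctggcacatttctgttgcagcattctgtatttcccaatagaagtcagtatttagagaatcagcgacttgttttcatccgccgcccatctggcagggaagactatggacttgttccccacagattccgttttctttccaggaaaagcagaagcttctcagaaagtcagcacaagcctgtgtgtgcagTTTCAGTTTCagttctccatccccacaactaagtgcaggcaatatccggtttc
The match starts 36 bases before the start in Mndal, 29 in Trim12c, 213 in Cxcl10 and 53 in Gbp7. Of 27025 genes with a RefSeq promoter, 3.46% hold this core. It was found in 4 of 38 genes that rose and had a promoter entry (10.5%), in 2 of 65 that fell (3.08%), in 15 of 42 type I interferon genes (35.7%) and in 11 of 15 interferon gamma inducible genes (73.3%). The interferon lists were drawn up from knowledge of such genes, so their share describes the lists. The gamma-activated site, searched as TTCNNNGAA on both strands, was in 8.13% of all promoters and 9 of 15 interferon gamma inducible genes, and it shared a base with the other core in 18 promoters. A match is a string of letters and not a measured site.

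MHC class I and peptide loading genes were higher in 23 of 24, 21 without overlap, with a median of 0.77 and 0 passing (18 higher at an unadjusted p under 0.05), against 11 with the replicate block, 11 by DESeq2 and 14 with antiPD1 replicate 3 left out. Nlrc5, the transactivator of class I genes, had 37.9, 61.2 and 48.97 CPM with IFNa and 93.4, 91.6 and 114 with the combination (1.01 ± 0.24, adjusted p = 0.0644, and 0.0228 with the block). Tap2, a subunit of the peptide transporter, had 30.1, 54.3 and 63.5 against 101, 103 and 113 (1.098 ± 0.31, adjusted p = 0.086, and 0.0228 with the block), and the class I heavy chain H2-K1 198, 194 and 219 against 559, 419 and 517 (1.29 ± 0.49, adjusted p = 0.153). H2-K1 shares sequence with other class I genes, so its reads are uncertain. MHC class II genes were higher without overlap in 12 of 12, with a median of 1.63 and 0 passing (12 higher at an unadjusted p under 0.05), against 3 with the replicate block, 3 by DESeq2 and 5 with antiPD1 replicate 3 left out. Their summed level was 424, 1717 and 1950.0 CPM with IFNa and 4065, 4124 and 4661 with the combination, and without IFNa replicate 1 the median was 1.21. Ciita, the class II transactivator, had 5.59, 26.8 and 21.5 against 56.7, 62.8 and 73.7 (1.84 ± 0.53, adjusted p = 0.0899, and 0.0352 with the block). H2-DMa, a chain of the peptide exchange factor, had 22.6, 33.5 and 36.1 against 68.4, 73.6 and 82.5 (1.28 ± 0.35, adjusted p = 0.0836, and 0.0305 with the block). Most macrophage and dendritic cell genes were also higher in the combination, though the summed macrophage level overlapped between the groups. The part of these cells in the class II difference was not tested.

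Chemokines and their receptors were higher in 31 of 35, 24 without overlap, with a median of 1.19. Cx3cl1 was the 1 that rose (17 higher at an unadjusted p under 0.05), against 9 with the replicate block, 12 by DESeq2 and 10 with antiPD1 replicate 3 left out. Cxcl9, which draws cells that carry Cxcr3, had 30.9, 97 and 89.9 CPM against 183, 185 and 301 (1.62 ± 0.59, adjusted p = 0.139). Cxcl10, with the same receptor, had 14.2, 40.1 and 45.6 against 65.9, 85.9 and 115 (1.42 ± 0.41, adjusted p = 0.0925, and 0.0228 with the block). The groups were separate for both. Ccr1, a receptor of inflammatory chemokines on myeloid cells, had 12.5, 15.8 and 16.05 against 21.6, 29.7 and 26.6 (0.81 ± 0.20, adjusted p = 0.0737, and 0.0353 with the block). Among 21 death receptors and their ligands, 13 were higher and 1 lower without overlap, with a median of 0.50, and Tnfsf10 was the 1 that rose (12 higher at an unadjusted p under 0.05), against 5 with the replicate block, 4 by DESeq2 and 4 with antiPD1 replicate 3 left out. Casp1, the inflammasome caspase, had 10.97, 16.2 and 17.4 against 28.7, 29.5 and 31.2 CPM (1.002 ± 0.27, adjusted p = 0.0829, and 0.0273 with the block).

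The largest fall among genes that passed was that of Cyp2a4 (chr7:26307169-26315088), a steroid-hydroxylating cytochrome P450, with 26.4, 51.4 and 72.01 CPM with IFNa and 1.58, 0.6398 and 0.994 with the combination (-5.54 ± 0.73, adjusted p = 0.0117). Every combination library was below 2 CPM. Cyp2a4 is nearly identical to its neighbour Cyp2a5, so its reads may be shared. Cyp3a16, a P450 of the fetal and newborn liver, fell from 7.66, 11.4 and 13.95 to 1.38, 1.02 and 0.635 CPM (-3.44 ± 0.56, adjusted p = 0.026). Sprr2h and Ivl, which encode proteins of the cornified envelope of squamous epithelium, had 68.95, 9.85 and 11.96 against 1.52, 1.13 and 1.63 CPM (-4.399 ± 0.73, and -2.93 without IFNa replicate 1) and 21.4, 8.39 and 11.5 against 1.86, 1.69 and 1.13 CPM (-3.14 ± 0.51). IFNa replicate 1 was the highest library for both, most of all for Sprr2h. Alpi, intestinal alkaline phosphatase, fell from 9.095 ± 6.205 to 1.12 ± 0.0564 CPM (-3.01 ± 0.56), and the serine protease gene Prss22 from 10.6 ± 2.91 to 1.43 ± 0.364 (-2.89 ± 0.35, adjusted p = 0.0113). Ptprn, a secretory granule protein of neuroendocrine cells, fell from 11.4 ± 0.956 to 1.59 ± 0.255 (-2.83 ± 0.55), Lgals2, galectin 2, from 8.12 ± 2.61 to 2.32 ± 0.321 (-1.804 ± 0.32), and Mak, a kinase of germ cells and cilia, from 11.1 ± 0.867 to 3.29 ± 0.621 (-1.76 ± 0.29). Cidec, a lipid droplet protein of fat cells and fatty liver, fell from 5.11 ± 3.102 to 1.12 ± 0.410 (-2.18 ± 0.44). In the keratinocyte and squamous list, in which 1 of 11 passed the filter on low counts only through the combination, Ivl was the only 1 of 11 that fell, 3 were lower and 2 higher without overlap, and the median was -0.47, or -0.08 without IFNa replicate 1.

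Areg, Stc1, Igfbp1 and Igfbp3, which encode secreted proteins, fell by 1.11 to 1.63 on the log2 scale. Areg, the EGF receptor ligand amphiregulin, had 77.5, 95.5 and 104 CPM with IFNa and 31.2, 22.9 and 35.3 with the combination (-1.63 ± 0.25, adjusted p = 0.0215). The groups were far apart. Stc1, the hormone stanniocalcin 1, fell from 221, 211 and 173 to 68.4, 66.7 and 64.9 CPM (-1.599 ± 0.23, adjusted p = 0.0167). Igfbp1 and Igfbp3, which bind insulin-like growth factors in plasma, fell from 4398, 5180.1 and 5464 to 2348, 2348 and 2012 CPM (-1.17 ± 0.17, adjusted p = 0.0185) and from 1893, 1962 and 2098 to 995, 915 and 840.5 (-1.11 ± 0.20, adjusted p = 0.0335). Igfbp1 had the highest level of all genes that fell. Stc1, Igfbp1 and Igfbp3 were picked out after their values were seen. Arg2, the mitochondrial arginase, fell from 42.6, 45.4 and 51.5 to 23.9, 23.03 and 20.5 CPM (-1.05 ± 0.11, adjusted p = 0.0104), and St3gal1, a sialyltransferase, from 299, 323 and 266 to 165, 205 and 169 (-0.72 ± 0.11, adjusted p = 0.0215).

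Hepatoma and oncofetal genes were lower in 16 of 24, 6 without overlap (against 16.5% of all genes), with a median of -0.20 (-0.35 without combination replicate 1 and -0.065 without combination replicate 3). Krt18, a keratin of simple epithelium, was the 1 that fell (8 lower at an unadjusted p under 0.05), against 3 with the replicate block, 8 by DESeq2 and 7 with antiPD1 replicate 3 left out. It had 2216, 1940.0 and 2109 CPM with IFNa and 1249.6, 1390.3 and 1454 with the combination (-0.61 ± 0.10, adjusted p = 0.0243). Its partner Krt8 had 2616, 1568 and 1696 against 1053, 1137 and 1151 (-0.82 ± 0.21, adjusted p = 0.0754), with IFNa replicate 1 highest. Afp had 7779, 10273 and 11167 against 5764, 6921 and 5708 CPM (-0.67 ± 0.14, adjusted p = 0.0536, and 0.0462 with the block). Hnf4a, the hepatocyte nuclear factor, had 236, 417 and 341 against 209.8, 213 and 176 (-0.73 ± 0.18, adjusted p = 0.0733). The groups did not overlap for these 2 genes. Alb, the gene of serum albumin, overlapped, at 9509.8, 9654 and 10403 against 11112, 7730.3 and 6872 (-0.201 ± 0.25, adjusted p = 0.663). The immune lists were higher in the same libraries in which these genes were lower, and the part of a smaller share of tumour cell RNA was not tested.

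Genes of the hypoxia response were lower in 19 of 25, 12 without overlap (against 16.5% of all genes), with a median of -0.29 (-0.18 without IFNa replicate 1). No member fell (8 lower at an unadjusted p under 0.05), against 1 with the replicate block, 6 by DESeq2 and 3 with antiPD1 replicate 3 left out. Epas1, which encodes HIF-2 alpha, had 330.0, 308 and 240.2 CPM with IFNa and 203, 190.0 and 168 with the combination (-0.65 ± 0.14, adjusted p = 0.0539, and 0.0405 with the block). Egln3, an oxygen-sensing prolyl hydroxylase, had 255, 283 and 293 against 162, 188 and 195 (-0.61 ± 0.16, adjusted p = 0.0808). Vegfa, the endothelial growth factor, had 513, 510.3 and 544 against 359.7, 347 and 433 (-0.46 ± 0.14, adjusted p = 0.0992). Ndrg1, a hypoxia-induced gene, had 523, 450.4 and 471 against 234, 288 and 282 (-0.84 ± 0.22, adjusted p = 0.0754). All 4 separated the groups. Slc2a1, the glucose transporter GLUT1, had 423, 325 and 332 against 204, 206 and 250.3 CPM (-0.71 ± 0.18, adjusted p = 0.0739). Ldha, lactate dehydrogenase A, had 2339.5, 2475 and 2696 against 1933, 1986 and 2030.3 (-0.34 ± 0.11, adjusted p = 0.118). The glycolysis list as a whole was split, with 12 higher and 17 lower of 29 and a median of -0.07 (-0.04 without IFNa replicate 3 and -0.019 without combination replicate 2). Its hexokinases differed. Hk2 had 353, 331 and 324 against 269.7, 319 and 314 (-0.16 ± 0.13, adjusted p = 0.477). Hk3, the form of myeloid cells, had 7.91, 16.8 and 17.1 against 41.9, 40.02 and 54.1 (1.702 ± 0.53, adjusted p = 0.102, and 0.0386 with the block). No glycolysis gene fell (2 lower at an unadjusted p under 0.05), against 0 with the replicate block, 2 by DESeq2 and 1 with antiPD1 replicate 3 left out. None rose either (3 higher at an unadjusted p under 0.05), against 1, 2 and 2 in the same fits. Oxidative phosphorylation subunits were lower in 25 of 33, 12 without overlap (against 16.5%), with a median of -0.09 (-0.14 without IFNa replicate 1, -0.16 without IFNa replicate 2 and -0.039 without IFNa replicate 3). None fell (7 lower at an unadjusted p under 0.05), against 0 with the replicate block, 3 by DESeq2 and 3 with antiPD1 replicate 3 left out.

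Acute phase genes carried some of the largest folds that did not pass. Saa1, serum amyloid A1, had 60.4, 47.3 and 49.4 CPM with IFNa and 915, 455 and 415 with the combination (3.51 ± 0.79, adjusted p = 0.0628). Saa3 had 1.83, 1.86 and 2.02 against 47.7, 22.5 and 29.9 (4.13 ± 0.87, adjusted p = 0.0539, and 0.0386 with the block). Orm2, of the orosomucoids, had 11.4, 11.2 and 10.8 against 148, 109 and 66.4 (3.27 ± 0.67, adjusted p = 0.0506, and 0.0378 with the block). The IFNa libraries lay close together for Orm2, and combination replicate 1 was the highest for all 3. The Saa genes are close copies, so their reads may be shared. Of 23 acute phase genes, 6 were higher and 1 lower without overlap (against 20.4% and 16.5% of all genes), with a median of 0.99 (2.05 without IFNa replicate 1 and 0.46 without combination replicate 1). None rose (6 higher at an unadjusted p under 0.05), against 2 with the replicate block, 4 by DESeq2 and 5 with antiPD1 replicate 3 left out. Adult hepatocyte enzymes were higher in 23 of 32, only 4 without overlap, with a median of 0.86 (1.58 without IFNa replicate 1, 0.52 without IFNa replicate 2, 0.52 without IFNa replicate 3 and -0.026 without combination replicate 1). Their summed level was 2610.0, 803 and 754 CPM with IFNa and 3737, 819 and 1561 with the combination, with replicate 1 highest in both groups. None of the 32 rose (5 higher at an unadjusted p under 0.05), against 0 with the replicate block, 0 by DESeq2 and 1 with antiPD1 replicate 3 left out. Cyp1a2, a P450 of mature liver, had 5.59, 6.74 and 6.12 against 59.1, 13.6 and 24.2 CPM (adjusted p = 0.149).

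Of 35 complement and coagulation genes, 7 were higher and 6 lower without overlap, near the 20.4% and 16.5% of all genes, with a median of 0.64 (0.0026 without combination replicate 1). None rose (6 higher at an unadjusted p under 0.05), against 0 with the replicate block, 2 by DESeq2 and 4 with antiPD1 replicate 3 left out. None fell either (4 lower at an unadjusted p under 0.05), against 1, 3 and 4 in the same fits. Mbl1, a mannose-binding lectin, had 4.45, 4.11 and 4.06 CPM against 38.1, 10.6 and 12.9 (2.29 ± 0.75, adjusted p = 0.112). Among the lower members, Fgb, the fibrinogen beta chain, had 4704, 5149 and 5397 against 3089.5, 2539 and 2212 (-0.96 ± 0.24, adjusted p = 0.0745). Serpinf2, the plasmin inhibitor, had 298, 543 and 607 against 209, 158 and 97.4 (-1.64 ± 0.38, adjusted p = 0.0628). F11, coagulation factor XI, had 36.97, 44.6 and 43.5 against 26.7, 23.6 and 20.5 (-0.82 ± 0.17, adjusted p = 0.0536, and 0.041 with the block). The groups were separate for these 3.

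Adding antiPD1 to IFNa was set beside adding it to no treatment, a comparison of 6 other libraries, in which 1374 genes rose (9.79%) and 715 fell (5.09%). Of the 49 rises, 46 had the same sign there, as did 88 of 88 falls, against 74.3% of all tested genes. Both same sign and separate groups were found for 106 of the 137, and 84 were also called. Enpp2 rose by 1.305 ± 0.24 with antiPD1 alone (adjusted p = 0.0188) and Jchain by 4.56 ± 0.42 (adjusted p = 0.00257). Areg had -0.33 ± 0.25 (adjusted p = 0.364) and did not pass there. The difference between both settings was tested as an interaction, and 0 genes passed with edgeR (837 at an unadjusted p under 0.05, 5.96% of those tested, with a smallest adjusted p of 0.15), while DESeq2 called 29 above 0 and 6 below 0. An interaction above 0 means that the signed antiPD1 difference was higher with IFNa than without. Without IFNa replicate 1, edgeR called 0 above 0 and 1 below 0. List medians were smaller with IFNa than without for T cell genes (1.51 against 2.31), MHC class II genes (1.63 against 2.23) and acute phase genes (0.99 against 2.78). These differences of medians were not tested. AntiPD1 replicate 3 enters the values without IFNa and had the highest sums of the antiPD1 libraries for these lists. Its sum was 606 CPM against 211 and 360 for T cell genes and 10400 against 2296 and 3461 for class II genes. For acute phase genes it was 16140 against 4290 and 3596.

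**Figure D4:**
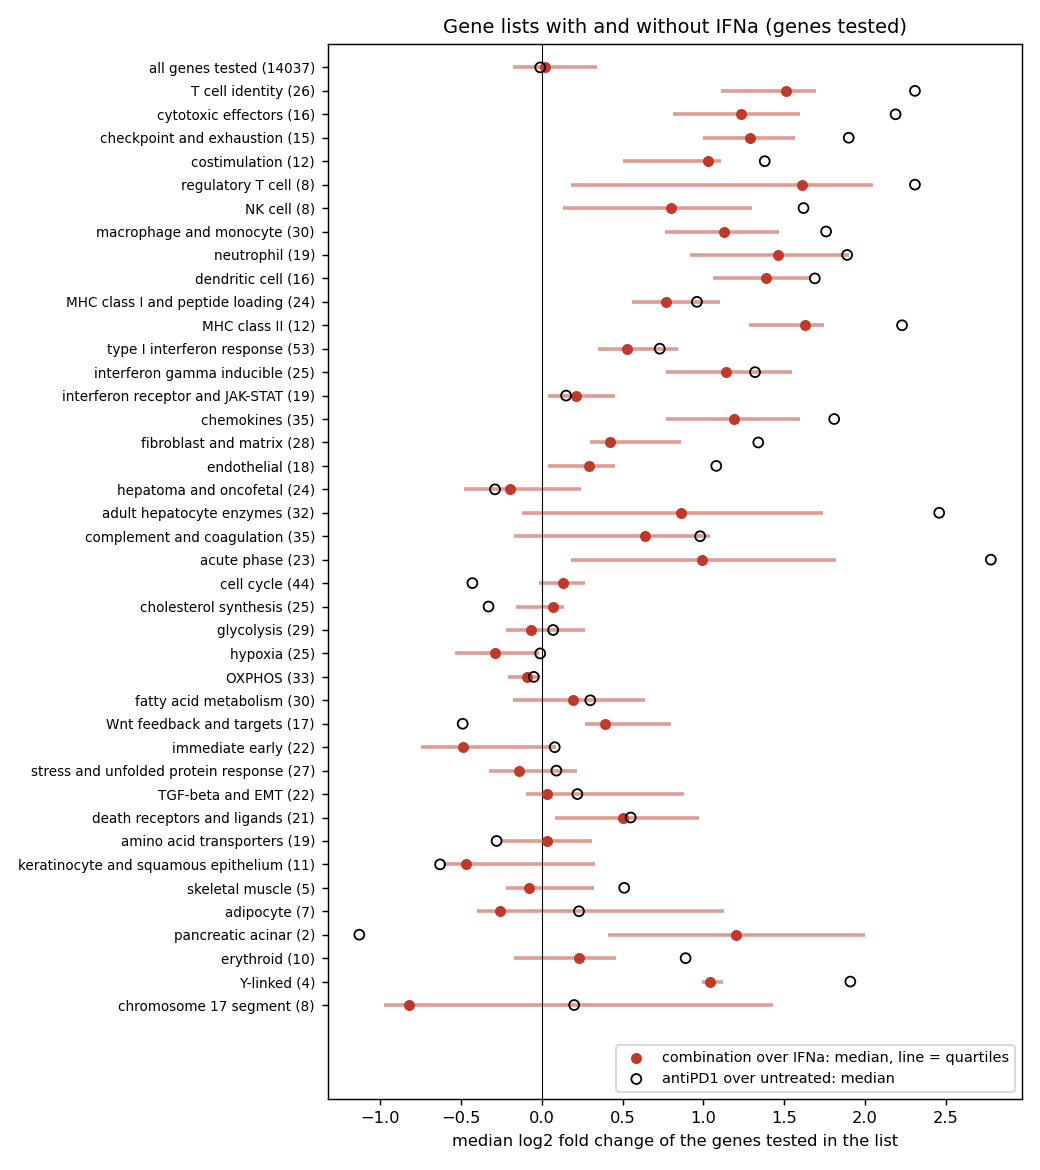
Median log2 fold change of the tested genes of each list (number in brackets) for combination over IFNa (red, with the quartiles as a line) and for antiPD1 over untreated (open circles). The mast cell and B and plasma cell lists are left out, and the Wnt list has medians of opposite sign, 0.39 and -0.49.

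Wnt feedback and target genes had medians of opposite sign with and without IFNa. Nkd1 and Notum are feedback inhibitors that Wnt signalling itself induces. Nkd1 had 57.8, 53.7 and 54.8 CPM with IFNa and 122, 131 and 84.4 with the combination (1.02 ± 0.24, adjusted p = 0.0638, and 0.0228 with the block), but 134, 146 and 87.4 in untreated and 80.02, 64.1 and 45.4 in antiPD1 libraries (-0.96 ± 0.24, adjusted p = 0.0285). Notum had 30.2, 52.4 and 56.6 against 132, 145 and 98.3 with IFNa (1.43 ± 0.35, adjusted p = 0.0717) and 210.1, 209 and 84.5 against 76.8, 60.1 and 52.3 without (-1.41 ± 0.34, adjusted p = 0.0276). Neither pair of groups overlapped, and the direction turned. The interaction was 1.98 ± 0.34 for Nkd1 (edgeR adjusted p = 0.501) and 2.84 ± 0.49 for Notum (edgeR adjusted p = 0.501), which did not pass. Of 17 tested Wnt feedback and target genes, 14 were higher in the combination, 10 without overlap, with a median of 0.39 and 0 rising (5 higher at an unadjusted p under 0.05), against 1 with the replicate block, 3 by DESeq2 and 3 with antiPD1 replicate 3 left out. The interaction was above 0 for 14 of the 17 and had an unadjusted p under 0.05 for 10, all above 0. Over all 14037 genes, 5.96% had such a p in either direction, and 491 genes had it above 0. The list was drawn up with earlier results of these data known, so these counts describe the list and do not test it. Ccnd1, the G1 cyclin D1, had 291, 435 and 386 against 563, 659 and 708 CPM (0.796 ± 0.24, adjusted p = 0.0975).

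By the smallest interaction p, the other genes with an interaction above 0 were Pllp and Cxcl15, and those with one below 0 were Arg2, St3gal1, P4ha1 and Angpt2. Pllp, a membrane protein of myelin and epithelia, had an interaction of 1.43 ± 0.19 (adjusted p = 0.15) and the chemokine Cxcl15 one of 2.09 ± 0.39 (adjusted p = 0.501). Arg2 had an interaction of -0.89 ± 0.16 (adjusted p = 0.501) and stood at 40.4, 42.8 and 41.4 CPM in untreated and 32.5, 39.3 and 39.5 in antiPD1 libraries (-0.16 ± 0.11). Angpt2, an angiopoietin that destabilises vessels, had 89.96, 120.1 and 123 CPM with IFNa and 70.01, 61.9 and 59.5 with the combination (-0.797 ± 0.26, adjusted p = 0.11), against 55.7, 48.03 and 85.6 in untreated and 128, 66.3 and 117 in antiPD1 libraries (0.72 ± 0.26). The interaction was -1.52 ± 0.37 for Angpt2, -0.71 ± 0.16 for St3gal1 and -0.59 ± 0.14 for P4ha1, a collagen prolyl hydroxylase (adjusted p = 0.655, 0.501 and 0.605). None of these passed.

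**Figure D5:**
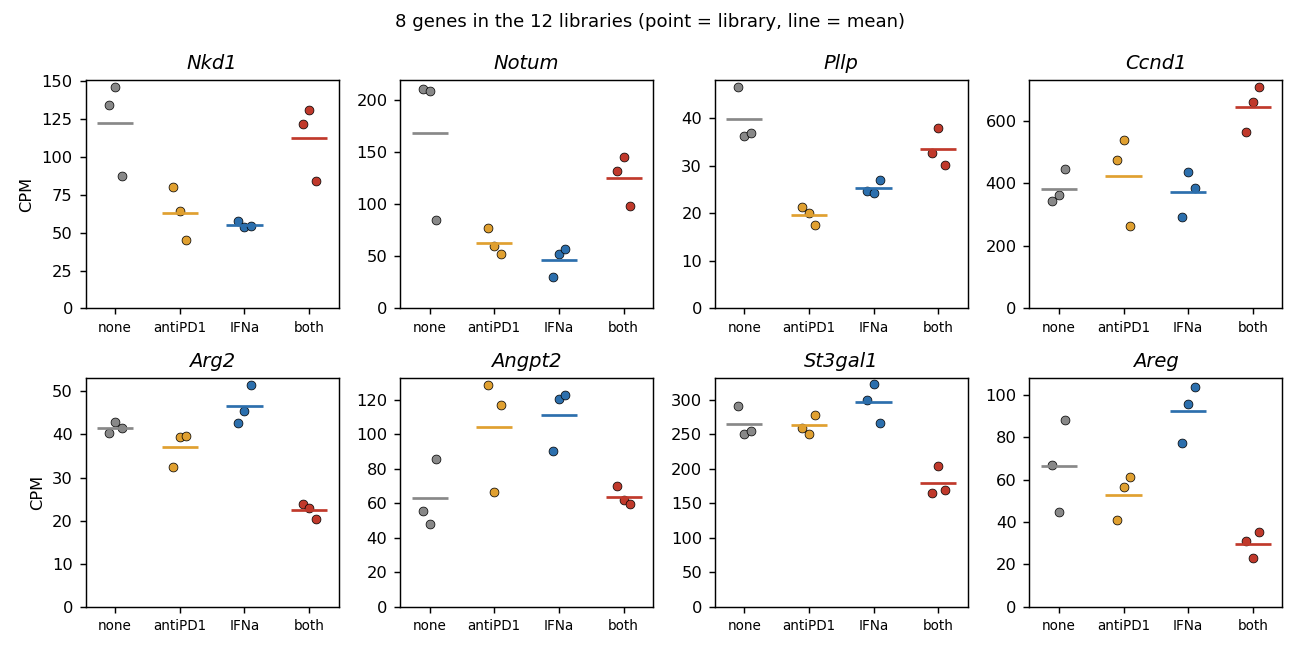
CPM of 8 genes in the 3 libraries of each group (points, with the mean as a line), from untreated (none) to both agents. Nkd1, Notum and Pllp are lower with antiPD1 alone than in untreated libraries and higher with both agents than with IFNa alone, and Arg2, St3gal1 and Areg are lowest with both agents.

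Cell cycle genes had a median of 0.13 (-0.15 without IFNa replicate 1, 0.23 without IFNa replicate 2 and 0.29 without IFNa replicate 3), and 6 of 44 were higher without overlap, under the 20.4% of all genes. Mki67, a proliferation antigen, had 118, 323 and 223 CPM against 291, 294 and 303 (0.42 ± 0.27, adjusted p = 0.374). Foxm1, a mitotic transcription factor, had 36.3, 58.9 and 49.2 against 54.4, 55.9 and 57.1 (0.21 ± 0.15), with overlap and the lowest value in IFNa replicate 1 for both. No cell cycle gene rose (1 higher at an unadjusted p under 0.05), against 0 with the replicate block, 1 by DESeq2 and 1 with antiPD1 replicate 3 left out. Immediate early genes were lower in 16 of 22, 10 without overlap, with a median of -0.49 that was -0.13 without IFNa replicate 1. Fosb, an AP-1 subunit, had 81.2, 6.85 and 6.75 CPM against 6.52, 5.76 and 5.85, with IFNa replicate 1 far above the other 5. Ier2, another early response gene, had 69.2, 58.4 and 68.8 against 42.99, 43.6 and 41.9 (-0.61 ± 0.13, adjusted p = 0.0536, and 0.0276 with the block). No early gene fell (4 lower at an unadjusted p under 0.05), against 1 with the replicate block, 2 by DESeq2 and 2 with antiPD1 replicate 3 left out.

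Of 28 fibroblast and matrix genes, 24 were higher, 15 without overlap, with a median of 0.42, and of 18 endothelial genes 15 were higher, 2 without overlap (against 20.4%), with a median of 0.29 (0.56 without IFNa replicate 1, 0.13 without IFNa replicate 2 and 0.082 without combination replicate 1). No fibroblast gene rose (4 higher at an unadjusted p under 0.05), against 0 with the replicate block, 1 by DESeq2 and 2 with antiPD1 replicate 3 left out. No endothelial gene rose (0 higher at an unadjusted p under 0.05), against 0 with the replicate block, 0 by DESeq2 and 0 with antiPD1 replicate 3 left out. Higher members numbered 17 of 25 for cholesterol synthesis, 20 of 30 for fatty acid metabolism, 10 of 19 for amino acid transporters, 9 of 27 for stress and unfolded protein genes and 12 of 22 for TGF-beta and mesenchymal genes, against 51.9% of all genes. Hmox1, heme oxygenase 1, had 67.1, 80.05 and 84.7 CPM against 184, 132 and 161 (1.04 ± 0.36, adjusted p = 0.121). Slc7a8, an amino acid transporter, had 6.85, 7.48 and 6.81 against 17.4, 15.01 and 16.1 (1.20 ± 0.30, adjusted p = 0.0753, and 0.0453 with the block).

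The summed level of Ddx3y, Eif2s3y, Kdm5d and Uty was 27.3, 15.4 and 18.1 CPM with IFNa and 52.04, 30.6 and 39.04 with the combination, with a median of 1.04, and 3 of the 4 did not overlap. Ddx3y, an RNA helicase, had 13.8, 8.34 and 8.35 against 24.2, 15.3 and 18.3 (0.92 ± 0.49, adjusted p = 0.284), and none of the 4 rose (2 higher at an unadjusted p under 0.05), against 0 with the replicate block, 0 by DESeq2 and 0 with antiPD1 replicate 3 left out. The Y-linked level and the immune lists were both higher in the combination, but within the groups they did not always run together. Replicate 1 had the highest Y-linked sum in both groups, yet the lowest T cell sum, at 113 CPM with IFNa and 283 with the combination. The neutrophil sum was highest in replicate 1 of both groups, at 309 and 546 CPM. A link between Y-linked and immune levels was not tested. Of 8 genes of a chromosome 17 segment, 3 were higher, all without overlap, and 5 lower, 1 without overlap, with a median of -0.82 (-0.53 without IFNa replicate 2). The 3 were Dennd1c, Vav1 and Adgre1. None rose, against 3 with the block, and 1 fell. That gene, Gpr108, a Golgi protein, fell from 60.7, 114 and 112 to 46.2, 49.8 and 47.7 CPM (-0.998 ± 0.20, adjusted p = 0.0433). Gpr108 stood at 56.0, 64.3 and 54.4 CPM in untreated and 57.2, 51.2 and 57.7 in antiPD1 libraries (-0.07 ± 0.19). IFNa replicates 2 and 3 were thus its highest of all 12 libraries. Its neighbour Trip10, a scaffold of the cytoskeleton, had 114, 333 and 338 against 99.8, 114 and 125 (-1.21 ± 0.33, adjusted p = 0.0836). For both, IFNa replicates 2 and 3 were high and IFNa replicate 1 lay near the combination libraries.

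Of 5 skeletal muscle genes tested, 2 were higher, both without overlap, and 3 were lower. Of 7 adipocyte genes, 2 were higher and 2 lower without overlap, and Cidec fell. Only 2 pancreatic acinar genes were tested, of which 1 was higher and 1 lower. Of 10 erythroid genes, 2 were higher without overlap, and 1 rose, Bpgm, the enzyme that makes the red cell regulator of oxygen release. Bpgm had 22.1, 22.04 and 23.3 CPM with IFNa and 46.7, 41.03 and 31.5 with the combination (0.82 ± 0.16, adjusted p = 0.0424), and 7 of the 10 were higher in all.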

How the data were processed

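RNA-seq of 12 libraries in 4 groups of 3 was deposited as a table of read counts per gene and a table of FPKM per gene. The authors used HISAT2 2.1.0, HTSeq and Cufflinks with mm10, per the submitters' processing notes. The sources used here do not state which step each tool served, the annotation or the strand setting. Deposited counts were scaled by TMM and fitted with edgeR 4.0.16 (R 4.3.3, robust quasi-likelihood F test) with 1 mean per group over 12 libraries, with Benjamini-Hochberg adjustment over 14037 genes. The interaction was the antiPD1 difference with IFNa minus that without. The 7841 excluded genes had a median count of 7.0 just below the limit (283 genes with 2 libraries at 10 or more counts), against 9.5 just above it (262 genes with 3). Alternatives were RLE size factors, other filters, 6 libraries, DESeq2 1.42.0, limma 3.58.1 on log2(FPKM + 1) or log2(FPKM + 0.1) of the authors' FPKM with a minimum of 1 or none, the replicate block and leaving out libraries. Coordinates are from GENCODE M21, in which 20665 of 21878 symbols (94.5%) were found. The edgeR steps were tested on simulated data.

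Replicate numbers come from the labels. Deviations of same-numbered libraries of both groups had correlations of 0.311, 0.222 and 0.115 over genes. Combination replicate 2 had a higher one with IFNa replicate 3 (0.241), and combination replicate 3 with IFNa replicate 2 (0.17). The pairing by number is therefore not settled for replicates 2 and 3, and no label gives it. Numbers were treated as pairs in the replicate block only, and the main fit was unpaired. Other pairs ran from -0.278 to 0.241. An exact permutation test of 3 against 3 cannot go below 0.1. The genes and lists were chosen with earlier results of these data known. Named genes were the 12 largest folds in each direction among genes that passed without overlap at 5 CPM or more, up to 4 genes per list by smallest p at 0.5 CPM or more, a short fixed set and 4 interaction genes per direction, besides those said to be picked later. Some genes named by this rule are not reported here.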

Additional observations from a re-analysis of the deposited data

Results flagged for a closer look

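The antiPD1 difference had opposite directions with and without IFNa for 3 of the named genes. In each, every combination library was above every IFNa library, and every antiPD1 library was below every untreated library. The interaction was 1.98 on the log2 scale for Nkd1 and 2.84 for Notum, both inhibitors that Wnt signalling induces. It was 1.43 for Pllp, which stood at 24.6, 24.3 and 27.01 CPM with IFNa, 32.8, 38.01 and 30.1 with the combination, 46.7, 36.2 and 36.9 in untreated and 21.3, 20.02 and 17.6 in antiPD1 libraries. The adjusted p of the interaction was 0.501 for Nkd1, 0.501 for Notum and 0.15 for Pllp (edgeR), so none passed. Over all 14037 tested genes, 77 (0.549%) separated in opposite directions in this way and 2572 (18.3%) in the same direction.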

How the results depend on the processing

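The number of rises (49) was 54 with RLE size factors, 48 without a filter and 49 with filterByExpr, and that of falls (88) was 115, 111 and 88. It moved to 774 rises and 362 falls with 6 libraries, 760 and 711 with antiPD1 replicate 3 left out, 820 and 815 by DESeq2, 1443 and 1045 by DESeq2 on 6 libraries, 126 and 48 on log2(FPKM + 1), 81 and 43 on log2(FPKM + 0.1) and 143 and 40 on log2(FPKM + 1) without a filter. With the replicate block, which rests on the pairing by number, it was 381 and 195, and no called gene was lost. Leaving out 1 of the 6 libraries gave 0 to 23 rises and 0 to 78 falls. Chosen after seeing the data, leaving out antiPD1 replicate 3 and 1 other library gave 643 and 684 (IFNa replicate 1), 445 and 597 (IFNa replicate 2), 409 and 435 (IFNa replicate 3), 131 and 99 (combination replicate 1), 260 and 178 (combination replicate 2) and 14 and 10 (combination replicate 3). Leaving out replicate 1 of both groups gave 5 and 11. The cause of these shifts was not tested. Interaction counts of 0 became 29 above 0 and 6 below 0 by DESeq2, and leaving out 1 library gave 0 above 0 and 0 to 1 below 0. Of 119 named genes, no called gene changed sign. Of 77 not called, 33 passed with the block and 46 with 6 libraries. Many of these were named for a small p in the same libraries, so the counts do not test the calls. Over all genes tested, the block called 2.71% higher and 1.39% lower, and the 6 libraries 5.51% and 2.58%. Another scaling moved the median of all genes by less than 0.1. Counts near 0 in the IFNa libraries limit the precision of mast cell and plasma cell folds.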
